A study of Mus musculus with 4 samples.

Results

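The transforming growth factor-β (TGF-β) pathway was followed in myeloid cells of the mouse heart through 8 genes, chosen by name from the 31053 genes in the deposited tables. They were the ligand Tgfb1, the receptors Tgfbr1 and Tgfbr2, the signal-carrying Smad2 and Smad3, the brakes Smad7 and Skil, and Tgfbi, an extracellular matrix protein named for its induction by TGF-β. Hearts came from CSF1R-EGFP+ reporter mice aged 12 to 16 weeks, and EGFP+ Ly6G- cells were sorted and profiled by droplet-based single-cell RNA sequencing. The baseline group was 1 library of 3 pooled hearts without surgery. The infarct group had 3 separate hearts, each sequenced as its own library 7 days after left coronary artery ligation, with the remote zone trimmed away before digestion. All groups carried the same reporter, which is driven by the Csf1r promoter and can also mark granulocytes, so the sort selected myeloid cells broadly and not macrophages alone. What follows describes transcripts only, and in summed counts fewer cells with a transcript and fewer transcripts per cell cannot be told apart.

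TGF-β is secreted in a latent complex and must be activated before it binds the type II receptor TGFBR2, which recruits and phosphorylates the type I receptor TGFBR1. TGFBR1 then phosphorylates SMAD2 and SMAD3, which enter the nucleus and change transcription. SMAD7 blocks the receptors, and SnoN, the product of Skil, represses transcription by SMAD complexes. In the healing heart, the pathway is known for restraining inflammation and for driving fibroblasts to make matrix.

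The filter kept 10238 baseline cells and 10117 to 10782 cells of each infarct library. The median number of unique molecular identifiers (UMIs) per cell was 6398.5 at baseline and 8469.5 to 8556.5 after infarction. Any pair of libraries shared 26 to 34 cell barcodes. Cells were assigned to gated types by the share of their UMIs that fell on marker genes, so a gated type is a range of a score and not a proven cell type. Of 41533 cells, 1315 (3.17%) lay within 25% of the cut on the C1q genes that separated macrophages from the other types. More lay near the cuts between macrophage types. Of 3601 Gpnmb-high cells 1136 lay within 25% above the cut, with 2286 cells as near below it, and of 3350 resident-like cells 478 did, with 1267 below. Infarct replicate 1 had 213 CPM of fibroblast markers (CPM are UMIs scaled to a fixed library total), against 49.1 and 59.0 in the other infarct libraries and 18.9 at baseline.

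There were 11 myeloid types with enough cells in each infarct library for a test. The macrophage types were resident-like (Lyve1, Timd4, Folr2), Gpnmb-high, MHC-II-high, MHC-II-low, Saa3/Arg1, interferon-response and cycling. The others were classical and non-classical monocyte-like, dendritic-like and granulocyte-like cells. MHC-II-low macrophages were the C1q-high cells left over by the other gates, with no markers of their own. Over all libraries their median MHC-II score was 15.1, against 6.15 in Gpnmb-high and 11.4 in Saa3/Arg1 macrophages. The name therefore does not mark the type with the least MHC-II. Resident-like macrophages made up 28.9% of baseline cells and 1.27% ± 0.33 (SD, n = 3) of infarct cells. MHC-II-low macrophages made up 7.31% and 32.4% ± 5.25. The Saa3/Arg1 type was found in 0 of 10238 baseline cells and was uneven after infarction, with 395, 32 and 220 cells in replicates 1, 2 and 3. Each marker of the gates was more abundant in its own type than in other cells, with the exception of Il1b, at 591 CPM in Saa3/Arg1 macrophages and 806 CPM in other cells. Resident-like macrophages held 728 CPM of Lyve1 against 6.54 CPM in other cells. These levels come from the same markers and cells that set the gates, so they give no independent support to the names.

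To ask where in the infarct each gene was most abundant, counts of each type were summed per library and compared with the sum of all other cells of the same library. Of 88 pairs of gene and type, 47 passed an adjusted p of 0.01 (edgeR), 16 higher and 31 lower in the type. The heart was a block in this fit, since both sums of a pair came from the same heart. Without the block 31 pairs passed, and none of the 5 calls of MHC-II-high macrophages was among them. With each type set against the average of the other gated types, 48 pairs passed, 26 higher and 22 lower. No share of all genes is given for these alternatives. The counts by type and the shares of all genes that follow belong to the fit with the block. Dendritic-like cells and Saa3/Arg1 macrophages each had 1 member higher and 5 lower. Of all genes tested, 15.7% were higher and 17.7% lower in dendritic-like cells, and 9.62% and 9.41% in Saa3/Arg1 macrophages. MHC-II-high macrophages had 5 members higher and 0 lower, where 8.62% of all genes were higher and 10.8% lower. MHC-II-low macrophages had 3 higher and 1 lower (all genes 12.2% and 15.3%). These were the macrophage types in which both receptors rose. In classical monocyte-like cells 2 members were higher and 3 lower (15.2% and 15.3% of all genes), and in the non-classical type 1 and 3 (8.34% and 10.5%). Resident-like macrophages had 1 higher and 4 lower (6.68% and 8%), and granulocyte-like cells 0 and 4 (4.72% and 8.9%). Gpnmb-high macrophages had 0 higher and 3 lower (12.3% and 14.2%), cycling macrophages 0 and 3 (13.2% and 9.69%), and interferon-response macrophages 2 and 0 (8.31% and 4.82%). The median log2 fold change of all genes was -0.35 in granulocyte-like and -0.25 in non-classical monocyte-like cells, and between -0.09 and 0.01 in the other types.

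**Figure D1:**
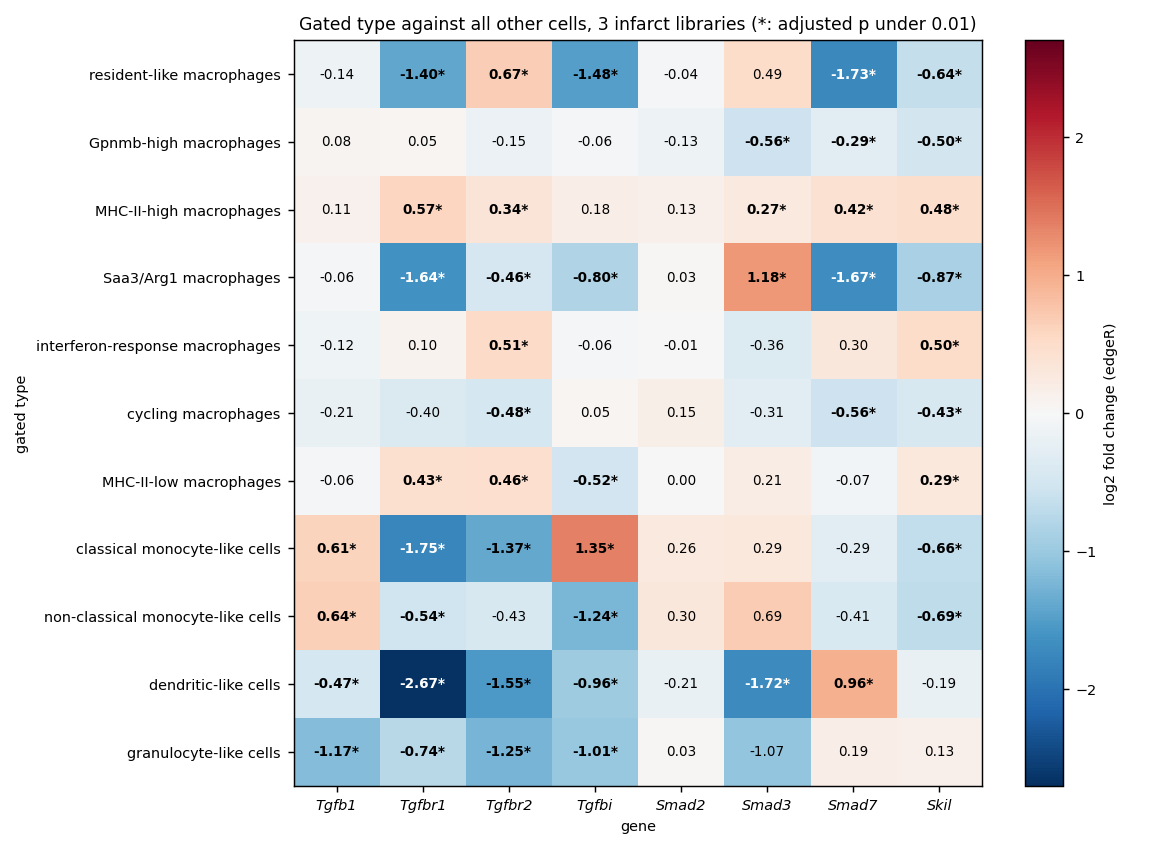
Log2 fold change of each gene (columns) in each gated type (rows) against all other cells of the 3 infarct libraries, from edgeR, with an asterisk where the adjusted p was under 0.01. Tgfbr1 was lowest in dendritic-like cells (-2.67), Tgfbi was highest in classical monocyte-like cells (1.35), and no type passed for Smad2.

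Tgfb1 (ENSMUSG00000002603, chr7:25687002-25705077, + strand, GRCm38), which encodes the ligand TGF-β1, was most abundant in monocyte-like cells. In non-classical monocyte-like cells it stood at 318, 342 and 372 CPM in infarct replicates 1, 2 and 3. In classical monocyte-like cells it stood at 283, 279.7 and 300.5 CPM. All 6 values lay above the highest value of any macrophage type, 241 CPM in resident-like macrophages. The log2 fold change against all other cells was 0.64 ± 0.13 (SE; adjusted p = 9.58e-06) in the non-classical type and 0.61 ± 0.06 (adjusted p = 0.000198) in the classical type. Tgfb1 was lower in dendritic-like cells, by a log2 fold change of -0.47 ± 0.07 (adjusted p = 8.54e-05), and in granulocyte-like cells, at -1.17 ± 0.24 (adjusted p = 2.22e-05). The 7 macrophage types did not pass, and their means ran from 166 to 203 CPM. In order of level, the 2 monocyte-like types, cycling and interferon-response macrophages, dendritic-like and granulocyte-like cells were each separated from the next without overlap of the 3 libraries. The Saa3/Arg1, resident-like, MHC-II-high, MHC-II-low and Gpnmb-high macrophages between them overlapped. Only neighbours by mean were compared here. Cycling macrophages (177.7 to 183.1 CPM) also overlapped the Saa3/Arg1 and resident-like types, whose lowest libraries held 178.9 and 179.1 CPM. Without infarct replicate 3, the adjusted p was 0.0125 in non-classical monocyte-like cells and 0.0213 in granulocyte-like cells, at log2 fold changes of 0.56 and -1.02.

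**Figure D2:**
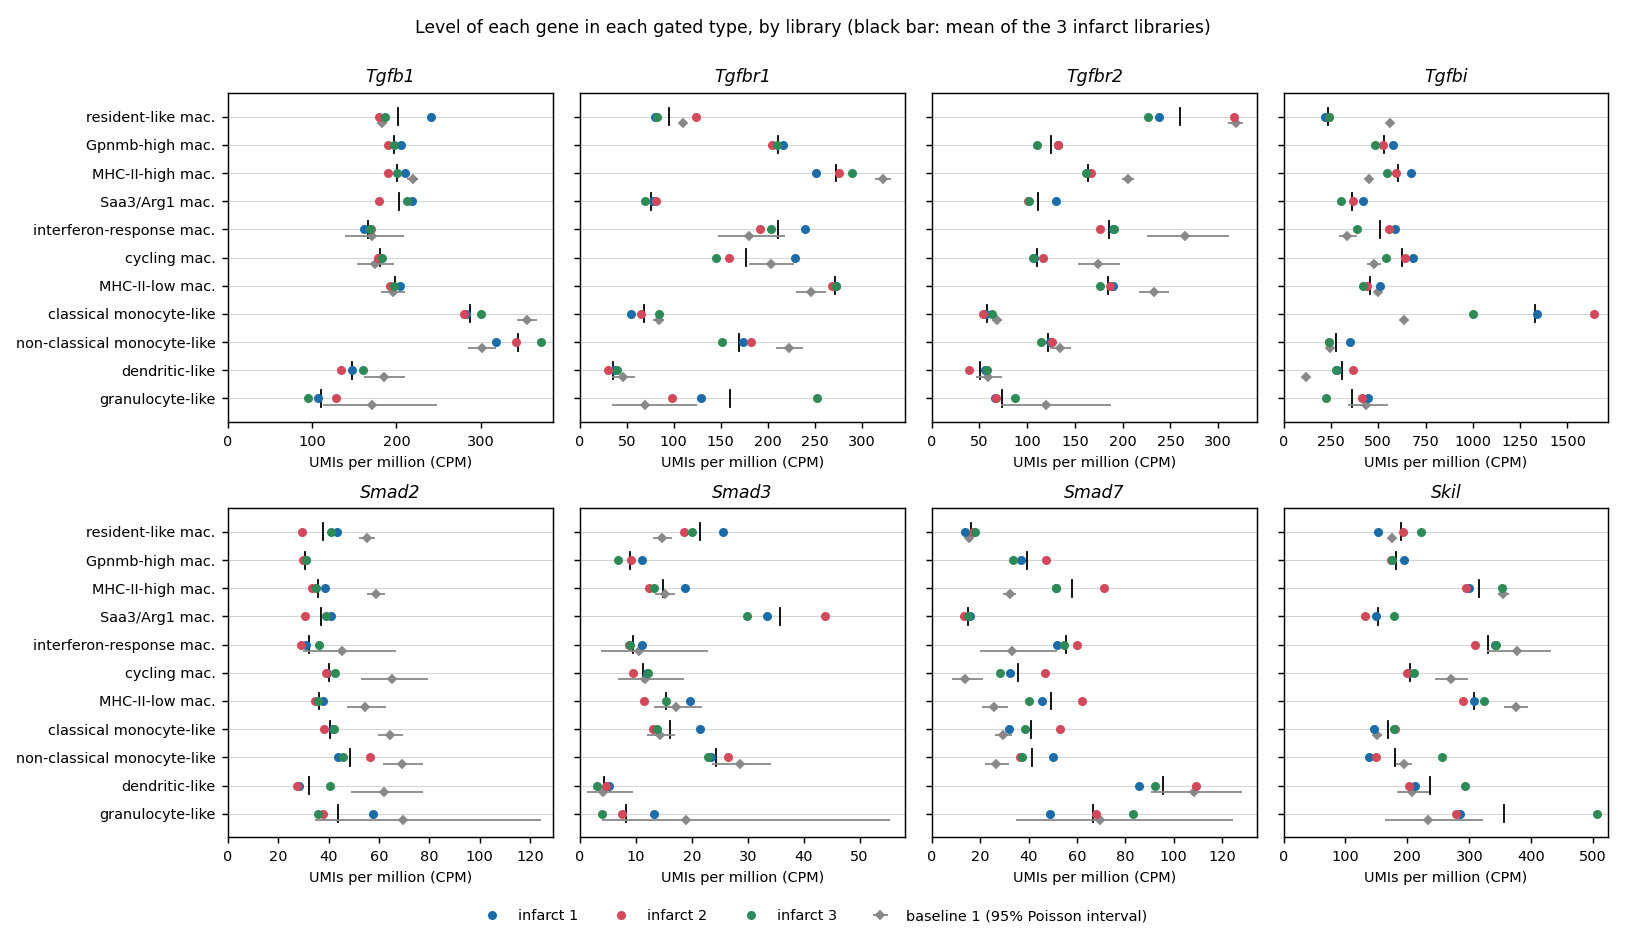
CPM of each gene (panels) in each gated type (rows), with a point for each infarct library, a black bar for their mean and a grey diamond for the baseline library with its 95% Poisson interval, where it held at least 50 cells of the type. Tgfb1 was high in both monocyte-like types, Tgfbr1 and Tgfbr2 were low in classical monocyte-like and dendritic-like cells, and Tgfbi stood apart in classical monocyte-like cells.

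Promoter windows are shown for the receptors and for Tgfbi, since both receptors were low in classical monocyte-like cells where Tgfbi was high. The windows run from 250 to 71 bases before the RefSeq start (GRCm38.p6). They lie at chr4:47352972-47353151 (+ strand) for Tgfbr1, chr9:116175434-116175613 (- strand) for Tgfbr2 and chr13:56609336-56609515 (+ strand) for Tgfbi, and are written in the direction of transcription. Capitals mark matches on either strand to CAGAC, the core of the Smad box, GAGGAA, a core of PU.1 sites, or TGANTCA, the AP-1 site.
Tgfbr1: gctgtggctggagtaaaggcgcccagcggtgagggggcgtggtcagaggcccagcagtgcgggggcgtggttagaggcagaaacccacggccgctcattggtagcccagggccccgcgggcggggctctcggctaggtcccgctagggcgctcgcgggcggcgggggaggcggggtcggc
Tgfbr2: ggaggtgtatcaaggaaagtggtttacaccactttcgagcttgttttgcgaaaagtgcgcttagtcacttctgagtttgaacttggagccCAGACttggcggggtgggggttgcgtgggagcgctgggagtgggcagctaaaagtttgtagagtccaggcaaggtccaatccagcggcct
Tgfbi: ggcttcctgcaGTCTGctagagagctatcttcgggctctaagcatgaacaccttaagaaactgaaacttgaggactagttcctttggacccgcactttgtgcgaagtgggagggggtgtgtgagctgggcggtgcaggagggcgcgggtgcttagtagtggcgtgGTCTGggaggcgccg
The Tgfbi window held 2 matches to CAGAC, the Tgfbr2 window 1 and this Tgfbr1 window 0. A further RefSeq start of Tgfbr1, inside the gene, had a window with 1 match to CAGAC and 1 to GAGGAA. A match is a run of letters and not a bound site. Of 32851 windows of the same length, 33.2% held CAGAC, 17.2% held GAGGAA and 4.93% held TGANTCA. The Tgfbr1 window was 75% G or C, against 53.9% for Tgfbr2 and 58.3% for Tgfbi. RefSeq windows were examined for 5 of the 8 genes only.

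Tgfbr1 (ENSMUSG00000007613, chr4:47353222-47414931, + strand) encodes the type I receptor, the kinase that phosphorylates SMAD2 and SMAD3. It was highest in MHC-II-high macrophages, at 252, 276 and 290.2 CPM in infarct replicates 1, 2 and 3, and in MHC-II-low macrophages, at 273, 269 and 273 CPM. These 2 types overlapped each other, and of the other 9 only 1 granulocyte-like library reached them. The log2 fold changes were 0.57 ± 0.02 (adjusted p = 6.06e-06) and 0.43 ± 0.04 (adjusted p = 0.000220). At the other end stood dendritic-like cells, with 35.8, 29.7 and 39.0 CPM and a log2 fold change of -2.67 ± 0.10 (adjusted p = 2.14e-12). Mean Tgfbr1 was thus 7.82 times higher in the highest type than in the lowest. Classical monocyte-like cells held 54.5, 65.5 and 84.2 CPM (log2 -1.75 ± 0.10, adjusted p = 1.91e-05), below every macrophage library except those of the Saa3/Arg1 and resident-like types.

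Tgfbr1 was also low in 2 macrophage types. In Saa3/Arg1 macrophages it stood at 78.0, 81.0 and 69.6 CPM, with a log2 fold change of -1.64 ± 0.15 (adjusted p = 1.03e-24). In resident-like macrophages it stood at 79.6, 123 and 82.3 CPM (log2 -1.40 ± 0.13, adjusted p = 1.31e-24). The p-values of these 2 types rest on a spread shared by all genes and not on that of Tgfbr1 between hearts. The non-classical monocyte-like cells, at 169 ± 15.9 CPM (SD, n = 3), were lower by a log2 fold change of -0.54 ± 0.15 (adjusted p = 0.00173), which gave -0.42 and an adjusted p of 0.136 without infarct replicate 3 and turned to 0.22 (adjusted p = 0.442) against the average of the other gated types. Granulocyte-like cells, with 106 UMIs in all, passed at -0.74 ± 0.23 (adjusted p = 0.00996), although replicate 3 held 253 CPM and the others 129 and 97.9. That call was lost without replicate 1 (-0.64, adjusted p = 0.0475) or replicate 2 (-0.56, adjusted p = 0.196), and against the average of the other types the value was 0.13. In cycling macrophages replicate 1 (229 CPM) lay apart from the others (159 and 145 CPM), and the log2 fold change of -0.40 (adjusted p = 0.0453) became -0.66 (adjusted p = 7.56e-09) without it.

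Cells were thinned to 2000 UMIs to compare shares at equal depth, which left out 7.05% to 13.2% of the cells of a library. In the infarct libraries a Tgfbr1 UMI was found in 39.9% ± 2.82 (SD, n = 3) of MHC-II-high macrophages and 6.39% ± 1.81 of dendritic-like cells. B-cell-like cells, set beside them, gave 1.52% ± 2.62 after infarction and 9.72% at baseline. The dendritic-like libraries, at 4.86% to 8.40%, lay above the infarct B-cell-like ones, which reached 4.55% on 34 cells in all, and below the baseline B-cell-like share, on 72 cells. B-cell-like cells are not a proven negative for these receptors, since Tgfbr2 was found in 36.1% of them at baseline. The comparison therefore cannot tell whether the dendritic-like share is background. Without thinning, the shares were 75.4% in MHC-II-high macrophages, 23.6% in dendritic-like cells and 12.8% in B-cell-like cells, whose median depths were 8383, 9426 and 2546 UMIs.

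Tgfbr2 (ENSMUSG00000032440, chr9:116084293-116175360, - strand) encodes the type II receptor, which binds the ligand. Its highest level was in resident-like macrophages, at 238, 317 and 226 CPM, above every other type in every library, with a log2 fold change of 0.67 ± 0.12 (adjusted p = 1.85e-07). With stricter gates the value was 0.48 and the adjusted p 0.103. The receptors thus differed in this type, where Tgfbr1 was lower than in other cells. Tgfbr2 was also higher in interferon-response macrophages (186 ± 8.37 CPM, log2 0.51 ± 0.06, adjusted p = 8.99e-06), MHC-II-low macrophages (184 ± 7.08 CPM, log2 0.46 ± 0.03) and MHC-II-high macrophages (164 ± 3.08 CPM, log2 0.34 ± 0.03). It was lowest in dendritic-like cells, at 55.8, 39.5 and 57.8 CPM, and in classical monocyte-like cells, at 56.97, 54.0 and 62.7 CPM. The libraries of these 2 types overlapped each other and none of the other types. Their log2 fold changes were -1.55 ± 0.11 (adjusted p = 6.93e-09) and -1.37 ± 0.08 (adjusted p = 1.69e-05). Lower levels also passed in granulocyte-like cells (73.8 ± 11.4 CPM, log2 -1.25 ± 0.26) and cycling macrophages (109.9 ± 5.72 CPM, log2 -0.48 ± 0.06). In Saa3/Arg1 macrophages, at 130, 101 and 102 CPM, the log2 fold change of -0.46 ± 0.15 (adjusted p = 0.00810) held in 5 of 13 other settings. It missed the threshold without replicate 2 (-0.37, adjusted p = 0.0714) and without replicate 3 (-0.42, adjusted p = 0.225).

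Smad2 (ENSMUSG00000024563, chr18:76241580-76310963, + strand) and Smad3 (ENSMUSG00000032402, chr9:63646767-63757994, - strand) encode the transducers that TGFBR1 phosphorylates. The mean of Smad2 ran from 30.5 CPM in Gpnmb-high macrophages to 48.6 CPM in non-classical monocyte-like cells, a ratio of 1.59, and all neighbouring types overlapped. It passed in 0 of 11 types with edgeR, and had an unadjusted p under 0.05 in the MHC-II-high, Gpnmb-high and classical monocyte-like types. With DESeq2 it passed in 0 types, and in clusters in place of gates it passed in classical monocyte-like cells (log2 0.32, adjusted p = 0.00769).

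Smad3 was scarce, with 5 to 1203 UMIs per type, and uneven. Saa3/Arg1 macrophages held 33.4, 43.9 and 29.8 CPM in infarct replicates 1, 2 and 3, above every library of every other type. The log2 fold change was 1.18 ± 0.20 (adjusted p = 3.02e-08). The same cells had low Tgfbr1 and low Smad7. When cells were thinned to 2000 UMIs, Smad3 in this type was at 1.01 with an adjusted p of 0.0134. Dendritic-like cells held 5.16, 4.57 and 3.00 CPM of Smad3 (log2 -1.72 ± 0.25, adjusted p = 2.70e-05), on 28 UMIs in all. Calls in Gpnmb-high macrophages (log2 -0.56 ± 0.12, adjusted p = 0.00545) and MHC-II-high macrophages (log2 0.27 ± 0.06, adjusted p = 0.00913) were weaker. The first missed the threshold without replicate 1 (-0.52, adjusted p = 0.0330) or replicate 3 (-0.43, adjusted p = 0.0363). The second missed it without any 1 of the 3 libraries, with values of 0.23 to 0.31.

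Smad7 (ENSMUSG00000025880, chr18:75367529-75395935, + strand), which encodes the inhibitory Smad that blocks the receptors, was highest in dendritic-like cells. There it stood at 85.5, 109 and 92.3 CPM in infarct replicates 1, 2 and 3, above the libraries of every other type. The log2 fold change was 0.96 ± 0.09 (adjusted p = 2.62e-07), in the type with the least Tgfbr1 and Tgfbr2. MHC-II-high macrophages, with 51.4, 71.3 and 51.2 CPM, were also higher (log2 0.42 ± 0.03, adjusted p = 0.000105). Smad7 was lowest in Saa3/Arg1 macrophages, at 15.9, 13.5 and 15.2 CPM, and in resident-like macrophages, at 13.8, 17.2 and 17.8 CPM. These types overlapped each other and none of the rest. Their log2 fold changes were -1.67 ± 0.19 (adjusted p = 1.02e-16) and -1.73 ± 0.20 (adjusted p = 2.18e-16). Cycling macrophages (log2 -0.56 ± 0.10, adjusted p = 0.00120) and Gpnmb-high macrophages (log2 -0.29 ± 0.05, adjusted p = 0.00211) were lower as well. At 2000 UMIs per cell the cycling value was -0.44 and the adjusted p 0.146. The Gpnmb-high call was lost without replicate 2 (-0.24, adjusted p = 0.0335) or replicate 3 (-0.29, adjusted p = 0.0141). In interferon-response macrophages Smad7 passed without replicate 2 (0.43, adjusted p = 0.00247) and missed the threshold with all libraries (0.30, adjusted p = 0.0164).

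Skil (ENSMUSG00000027660, chr3:31095058-31122577, + strand) encodes SnoN, a repressor bound to SMAD complexes and degraded on TGF-β signalling. It was raised in the macrophage types that also had raised Tgfbr2, other than the resident-like. Interferon-response macrophages held 341, 309 and 343 CPM (log2 0.50 ± 0.05, adjusted p = 4.17e-06). MHC-II-high macrophages held 299, 295 and 353 CPM (log2 0.48 ± 0.03, adjusted p = 1.95e-05), and MHC-II-low macrophages held 308, 289.6 and 324 CPM (log2 0.29 ± 0.03, adjusted p = 0.000446). With stricter gates the MHC-II-low value was 0.12 and the adjusted p 0.0692. The lowest mean was in Saa3/Arg1 macrophages, at 149, 132 and 179 CPM (log2 -0.87 ± 0.15, adjusted p = 5.77e-08). Skil was also lower in resident-like, Gpnmb-high and cycling macrophages and in both monocyte-like types, by log2 fold changes from -0.43 to -0.69. In resident-like macrophages the adjusted p was 0.0190 without replicate 1, at a value of -0.54. Granulocyte-like cells had the highest mean, 356 ± 130 CPM, through replicate 3 (506 CPM, against 284 and 279 CPM), and did not pass (adjusted p = 0.736). In all 10 steps of the order of levels, the libraries of neighbouring types overlapped.

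Tgfbi (ENSMUSG00000035493, chr13:56609523-56639562, + strand) encodes a secreted matrix protein that binds collagens and integrins. Classical monocyte-like cells stood alone, at 1342, 1639.7 and 1003 CPM in infarct replicates 1, 2 and 3, against 685 CPM in the highest library of any other type. The log2 fold change was 1.35 ± 0.10 (adjusted p = 5.34e-05), and it passed in all 13 other settings. The same cells had low Tgfbr1 and Tgfbr2 and raised Tgfb1. The remaining types formed a continuous series in which neighbours overlapped, from cycling macrophages (624 ± 72.5 CPM) down to resident-like macrophages (233 ± 12.1 CPM). Tgfbi was lower in resident-like macrophages, at 219, 241 and 238 CPM (log2 -1.48 ± 0.12, adjusted p = 4.42e-32), and in non-classical monocyte-like cells, at 349, 239 and 241 CPM (log2 -1.24 ± 0.13, adjusted p = 9.04e-21). Both monocyte-like types thus shared raised Tgfb1 and were on opposite sides for Tgfbi. Dendritic-like cells, granulocyte-like cells, Saa3/Arg1 and MHC-II-low macrophages were lower too, by log2 fold changes from -0.52 to -1.01. Against the average of the other gated types, MHC-II-low macrophages were at 0.05. The granulocyte-like call was lost without replicate 3 (-0.79, adjusted p = 0.117). In MHC-II-high macrophages, Tgfbi missed the threshold with all libraries (0.18, adjusted p = 0.0121). It passed without replicate 1 (0.20, adjusted p = 0.00458) or replicate 2 (0.23, adjusted p = 0.00429). In CPM, which lack the TMM scaling of these fold changes, its mean was 605 in the type and 581 in other cells. By CPM it was higher in the type in 2 libraries and lower in 1.

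At 2000 UMIs per cell, a Tgfbi UMI was found in 78.3% ± 4.95 (SD, n = 3) of classical monocyte-like cells and 37.1% ± 4.54 of resident-like macrophages after infarction. Outside the myeloid types, B-cell-like cells gave 3.03% ± 5.25 on 34 cells, endothelial-like 13.3% ± 23.1 on 11 and fibroblast-like 17.4% ± 9.21 on 37. Without thinning, the classical monocyte-like, resident-like and B-cell-like shares were 93.9%, 71.3% and 9.72%, at median depths of 8197.5, 7865 and 2546 UMIs. At equal depth the resident-like libraries, at 31.8% to 40%, lay above the B-cell-like and fibroblast-like ones. The highest endothelial-like library, on few cells, also reached 40%.

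The genes whose levels followed each member most closely were ranked by Pearson's r of log2(CPM + 1) over 33 sums, 11 types in 3 infarct libraries. Sums of a type share cells of the same kind and sums of a library share a heart, so r is a description. Tgfb1 was most like Rras (r = 0.90), Zfyve9 (0.88), which encodes the SMAD anchor SARA, and Dpep2 (0.86). Tgfbr1 was most like Tmx4 (0.92), Clec12a (0.87) and Cpd (0.82), and Tgfbr2 most like Serinc3 (0.91), Itga9 (0.86) and Gas6 (0.86). Smad7 was closest to Cd52 (0.84), Coro2a (0.81) and Sh3bgrl3 (0.79). Skil was closest to Neurl3 (0.83), the adhesion molecule Icam1 (0.83) and the cytokine Tnf (0.79). Smad2 was closest to Zfp131 (0.84), Wapl (0.77) and Brpf1 (0.77). Tgfbi had the loosest matches, Aprt (0.70), Cox4i1 (0.68) and Lgals3 (0.67). Smad3, at a mean of 15.5 CPM, was too low to rank.

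Beyond the 8 genes, 61 genes of the pathway were followed, and 223 of 585 pairs of gene and type passed, 79 higher and 144 lower. That is 13.5% and 24.6% of the pairs, where over all genes and types 10.5% were higher and 11.3% lower. By role, ligands had 9 pairs higher and 22 lower of 74, genes of latency and activation 13 and 41 of 104, and receptors 11 and 15 of 110. The other Smads had 6 higher and 4 lower of 44, brakes and partners 17 and 26 of 132, and reported targets 23 and 36 of 121. Against the average of the other gated types, 133 pairs were higher and 60 lower. The shares of all genes above belong to the main fit. No such share is given for this setting, so a shift of all genes cannot be told apart from one of the pathway.

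Saa3/Arg1 macrophages had 10 of 53 pathway genes higher and 12 lower (all genes 9.62% and 9.41%). Fn1, which encodes fibronectin, stood at 8309 ± 1100 CPM (SD, n = 3) in them against 773 ± 426 in other cells (log2 3.47 ± 0.21). Ltbp1, which anchors latent TGF-β to matrix, rose by 4.82 ± 0.47 and the ligand Tgfb2 by 4.28 ± 0.44 on the log2 scale, both from under 1 CPM in other cells. Their levels varied between hearts, at 17.3 ± 15.5 CPM for Ltbp1 and 15.2 ± 13.8 CPM for Tgfb2. Ccn2, a target of the pathway in fibroblasts, was lower in them on 5 UMIs (log2 -3.78 ± 0.53). In MHC-II-low macrophages 17 of 54 were higher and 9 lower (all genes 12.2% and 15.3%). There the feedback gene Pmepa1 (215.5 ± 29.4 CPM, log2 0.79 ± 0.06) and the corepressor Ski (log2 0.39 ± 0.03) were higher, and Timp1 was lower (log2 -1.43 ± 0.16).

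In classical monocyte-like cells 9 of 53 pathway genes were higher and 21 lower (all genes 15.2% and 15.3%). Pmepa1 stood at 16.9 ± 4.88 CPM against 159.8 ± 16.4 in other cells (log2 -3.23 ± 0.12). Gdf15, a stress-induced ligand, was lower by -3.57 ± 0.17, Ccn2 by -3.92 ± 0.35 and Tgfb3 by -3.23 ± 0.38. Non-classical monocyte-like cells had 8 of 52 higher and 12 lower (all genes 8.34% and 10.5%). Zfyve9 stood at 174 ± 13.0 CPM against 10.8 ± 1.08 (log2 3.86 ± 0.20), and the co-receptor Tgfbr3 at 45.4 ± 9.31 against 0.53 ± 0.30 (log2 6.41 ± 0.60). Pmepa1 was lower (log2 -4.14 ± 0.29).

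Dendritic-like cells had 7 of 54 pathway genes higher and 26 lower (all genes 15.7% and 17.7%). Gdf15 and the latent TGF-β activator Thbs1 were lower by log2 fold changes of -5.26 ± 0.21 and -4.59 ± 0.14, and Gdf3, at 3 UMIs, passed as lower too. Granulocyte-like cells had 3 of 52 higher and 11 lower (all genes 4.72% and 8.9%). The receptor gene Acvrl1 had 0 UMIs in them, at least 7.71-fold lower than in other cells against a floor of 3 counts over the group, and Pmepa1 (5 UMIs) and Gdf15 (2 UMIs) were lower on few counts. In resident-like macrophages 7 of 52 were higher and 10 lower (all genes 6.68% and 8%). Bmp2 was higher (log2 2.54 ± 0.21), and Gdf3, Thbs1 and Gdf15 were lower (log2 -1.58 ± 0.24, -1.48 ± 0.13 and -1.22 ± 0.15).

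In MHC-II-high macrophages 4 of 54 pathway genes were higher and 8 lower (all genes 8.62% and 10.8%). Among the lower were Tgfb2, Ltbp2, Fn1 and Timp1, by log2 fold changes from -1.46 to -2.86. Gpnmb-high macrophages had 6 of 54 higher and 16 lower (all genes 12.3% and 14.2%). Fbn1 (log2 -2.29 ± 0.34), Ccn2 (-2.11 ± 0.29), Id3 (-0.84 ± 0.10) and Thbs1 (-0.73 ± 0.09) were lower. Cycling macrophages had 0 of 53 higher and 15 lower (all genes 13.2% and 9.69%). The lower ones included Fbn1 (log2 -2.60 ± 0.38), Ccn2 (-2.47 ± 0.40), Thbs1 (-1.35 ± 0.31) and Zfyve9 (-1.28 ± 0.20). Interferon-response macrophages had 8 of 54 higher and 4 lower (all genes 8.31% and 4.82%). The cell cycle inhibitor Cdkn1a (log2 0.73 ± 0.05) and the co-receptor Eng (log2 0.71 ± 0.09) were higher, and Fn1 (log2 -1.77 ± 0.08) and Thbs1 (-0.62 ± 0.09) were lower. Fbn1, Ccn2 and Timp1 are abundant in fibroblasts, whose markers summed to 213 CPM in infarct replicate 1 and 49.1 to 59.0 in the others, and the part of such cells in these values was not tested.

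To ask how the whole sorted population differed after infarction, each gene's CPM over all cells was set beside the baseline library. With 1 baseline library there is no test. A gene was called where all 3 infarct libraries lay outside the exact 95% Poisson interval of baseline on the same side and their mean differed by at least 1.5-fold. This interval covers counting error only. Surgery, separate hearts and the trimmed remote zone all came with the infarct group, so they cannot be told apart from infarction. Smad7 was called higher and Smad2 lower. Of all 8249 genes with at least 10 CPM, 5.52% were called higher and 23.1% lower, and the median gene had a log2 ratio of -0.21. The median of the 8 members was 0.02.

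Smad7 stood at 30.6 CPM at baseline (95% interval 29.3 to 31.9) and at 45.4, 61.8 and 43.3 CPM in infarct replicates 1, 2 and 3. Every infarct library lay above baseline, by a log2 ratio of 0.71 for the mean. Without replicate 2 the log2 ratio was 0.54 and Smad7 was not called. With infarct types weighted by their baseline shares of UMIs, it was 0.44 and also not called. Smad2 stood at 58.6 CPM (56.8 to 60.5) at baseline and at 37.4, 33.2 and 35.8 CPM after infarction, a log2 ratio of -0.72. With TMM scaling, which moved the median of all genes to 0.09, Smad2 was at -0.44 and was not called.

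The ligand and receptors differed by less than 1.5-fold. Tgfb1 stood at 228 CPM (224 to 232) at baseline and 210.3, 191 and 202 CPM after infarction. All 3 infarct libraries lay below baseline, but the log2 ratio of -0.18 turned to 0.10 with TMM scaling. Tgfbr1 stood at 179.6 CPM (176 to 183) and at 204, 223 and 233 CPM. It lay above baseline in each library (log2 0.29), and at -0.17 when types were weighted by their baseline shares. Tgfbr2 stood at 203 CPM (199 to 206) and at 144, 151 and 146 CPM. It lay below baseline in each library, at a log2 ratio of -0.46, and at -0.28 when types were weighted by baseline shares.

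Tgfbi stood at 488 CPM (482 to 493) at baseline and at 657, 609.8 and 497 CPM after infarction, with replicate 3 just outside the interval (log2 0.27). Skil stood at 241 CPM (238 to 245) and at 252, 253 and 289.9 CPM (log2 0.13). It was above baseline in every library, and at -0.07 when types were weighted by baseline shares. Smad3 stood at 14.8 CPM (13.9 to 15.7) and at 17.4, 11.04 and 13.0 CPM (log2 -0.10). Its infarct libraries lay on both sides of baseline.

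**Figure D3:**
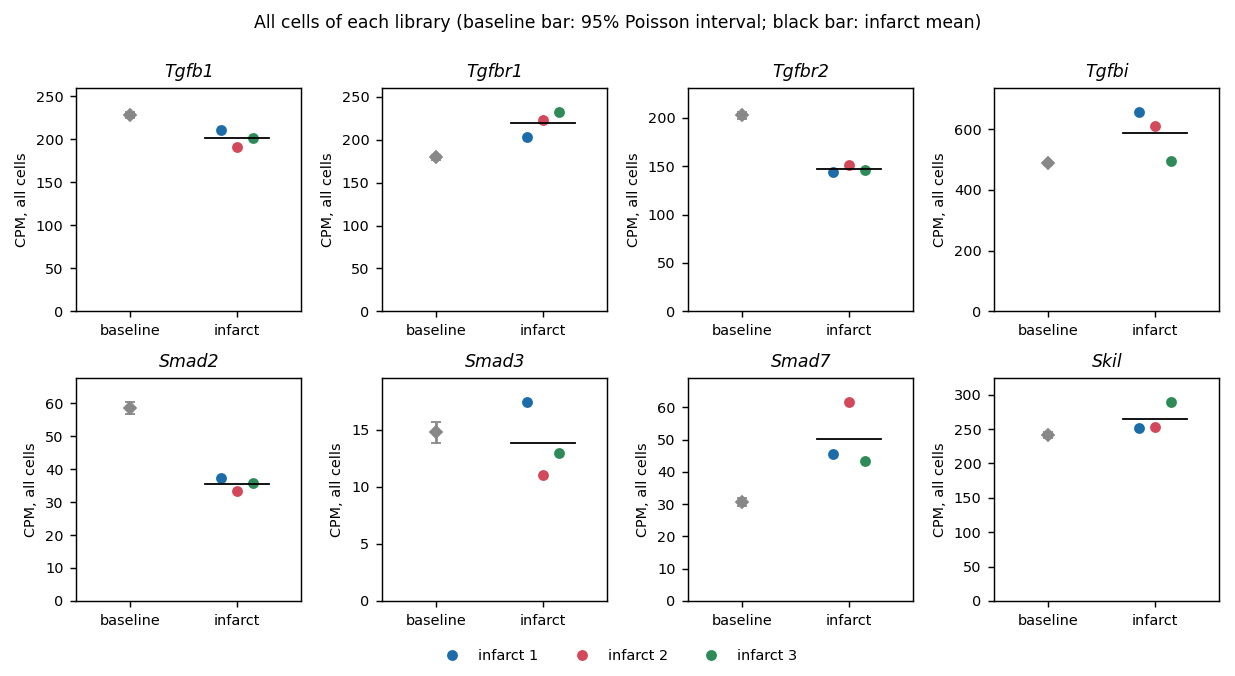
CPM of each gene over all cells of a library, with a grey diamond and 95% Poisson interval for the baseline library, a point for each infarct library and a black bar for their mean; each axis starts at 0. Smad7 lay above and Smad2 below baseline by more than 1.5-fold, Tgfbr2 lay below in every library, and the Smad3 points straddled baseline.

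The same comparison was made within the 9 types that had at least 50 cells in every library. Of 72 pairs of gene and type, 14 were called, 7 higher and 7 lower after infarction. The shares of all genes called in either direction were 23.8% in resident-like, 28.8% in MHC-II-high, 24.6% in interferon-response, 29.5% in cycling and 30.1% in MHC-II-low macrophages. They were 24.8% in classical and 13% in non-classical monocyte-like cells, 24.5% in dendritic-like and 18.7% in granulocyte-like cells. In each type 0 to 3 of the 8 members were called. A gated type need not hold the same cells in both groups. Of the clusters named MHC-II-high, the first held 2909 baseline cells and 32 to 41 cells of each infarct library, and the others held 32 and 54 baseline cells and 571 to 978 cells of each infarct library. A classical monocyte-like cluster held 865 baseline cells and 101 to 176 per infarct library, and the other 239 and 465 to 1670. The resident-like cluster held 2390 baseline cells and 15 to 43 per infarct library. The largest dendritic-like cluster held 525 baseline cells, where the dendritic-like gate held 118. The infarct counts per gene came from as few as 5 UMIs in granulocyte-like cells, where 0 members were called.

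Tgfbi was called in opposite directions. In resident-like macrophages it stood at 561 CPM (551 to 571) at baseline and at 219, 241 and 238 CPM after infarction, a log2 ratio of -1.27. In classical monocyte-like cells it stood at 637 CPM (621 to 653) and at 1342, 1639.7 and 1003 CPM, a log2 ratio of 1.06. In dendritic-like cells it stood at 116 CPM (98.1 to 137) and at 283, 365 and 274.5 CPM, a log2 ratio of 1.40. No infarct value fell inside the baseline interval in these types. With clusters in place of gates the 3 values were -0.96 in resident-like, 0.91 in classical monocyte-like and 0.59 in dendritic-like cells. In interferon-response macrophages Tgfbi was at 0.60 and was called without replicate 3 (0.76), where replicate 3 held 386 CPM against a baseline of 337 CPM (291 to 388).

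Smad7 was called higher in 5 types. In MHC-II-high macrophages it stood at 32.2 CPM (29.7 to 34.9) at baseline and at 51.4, 71.3 and 51.2 CPM after infarction (log2 0.85). In MHC-II-low macrophages it stood at 25.7 CPM (20.8 to 31.4) and at 45.7, 62.3 and 40.3 CPM (log2 0.94). Cycling macrophages went from 13.7 CPM (8.38 to 21.2) to 32.2, 46.9 and 28.4 CPM (log2 1.38), on 20 baseline UMIs. Interferon-response macrophages and non-classical monocyte-like cells were at 0.74 and 0.63. At 2000 UMIs per cell the cycling (0.83), MHC-II-low (0.67) and non-classical (0.33) calls were lost. Clusters in place of gates ended the cycling (0.43) and interferon-response (0.58) calls, and stricter gates (0.42) or doublet removal (0.65) also ended the latter. The MHC-II-high call held in each of these settings. The non-classical call was lost without replicate 1 (0.47), and classical monocyte-like cells were called without it (0.64, against 0.48 with all libraries). Resident-like macrophages, with 15.5 CPM (13.9 to 17.2) at baseline and 13.8, 17.2 and 17.8 CPM after infarction, did not share the difference. Dendritic-like cells, which had the most Smad7, stood at 108 CPM (90.7 to 128) and at 85.5, 109 and 92.3 CPM.

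Smad2 was called lower in 5 types, by log2 ratios of -0.72 in MHC-II-high, -0.60 in MHC-II-low and -0.70 in cycling macrophages, -0.66 in classical monocyte-like and -0.95 in dendritic-like cells. Its log2 ratio was below 0 in all 9 types, from -0.51 to -0.95. The MHC-II-low call was lost without replicate 2 (-0.57). At 2000 UMIs per cell the dendritic-like (-0.27), cycling (-0.66) and MHC-II-low (-0.57) calls were lost. Doublet removal ended the cycling (-0.57) and MHC-II-low (-0.46) calls, and clusters ended the classical monocyte-like call (-0.57). Resident-like macrophages were called without replicate 1 (-0.66) or replicate 3 (-0.61), and non-classical monocyte-like cells without replicate 2 (-0.63). The median of all genes within these types ran from -0.26 in interferon-response macrophages to 0.25 in granulocyte-like cells.

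Tgfbr2 was called in cycling macrophages, at 174 CPM (153 to 197) at baseline and 107, 116 and 106 CPM after infarction (log2 -0.67), and was not called in clusters (-0.45). Its log2 ratio was below 0 in all 9 types, from -0.15 in non-classical monocyte-like cells to -0.70 in granulocyte-like cells. In resident-like macrophages, which held the most Tgfbr2 in either state, it stood at 318 CPM (311 to 326) at baseline and at 238, 317 and 226 CPM (log2 -0.29). In granulocyte-like cells Tgfbr2 was called without replicate 3 (-0.84), and Tgfb1 (-0.76) and Tgfbr1 (1.46) without replicate 2. Tgfbr1 in MHC-II-high macrophages stood at 323 CPM (315 to 331) and at 252, 276 and 290.2 CPM (log2 -0.24). Its log2 ratio lay below 0 in 6 types, though over all cells it was 0.29.

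Tgfb1 was called in 0 types, with log2 ratios between -0.64 in granulocyte-like cells and 0.19 in non-classical monocyte-like cells. In classical monocyte-like cells it stood at 355 CPM (343 to 367) at baseline and at 283, 279.7 and 300.5 CPM (log2 -0.30). Monocyte-like cells thus held the highest Tgfb1 in both states. Smad3 and Skil were called in 0 types as well. Smad3 in resident-like macrophages stood at 14.7 CPM (13.1 to 16.4) and at 25.5, 18.6 and 20.0 CPM (log2 0.54), and was called higher without replicate 2 (0.63) and lower with stricter gates (-2.24). Skil ran from -0.40 in cycling macrophages to 0.61 in granulocyte-like cells.

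**Figure D4:**
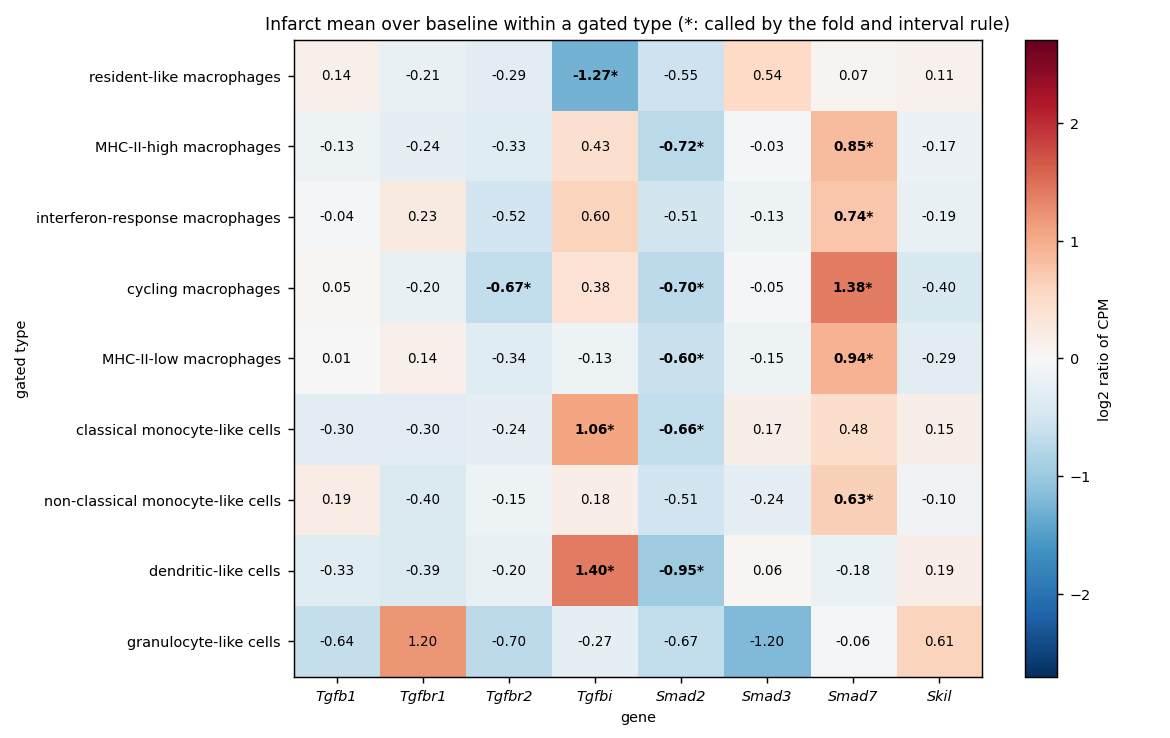
Log2 ratio of the infarct mean to baseline for each gene (columns) within each gated type (rows) that had at least 50 cells in every library, with an asterisk where the gene was called by the fold and interval rule. Smad7 was called higher in 5 types and Smad2 lower in 5, and Tgfbi was -1.27 in resident-like macrophages and 1.06 in classical monocyte-like cells.

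Of the 61 further pathway genes, 38 had at least 10 CPM over all cells, and 8 of these were called higher and 12 lower after infarction. The same rule called 5.52% of all 8249 such genes higher and 23.1% lower. With TMM scaling, which moved the median of all genes to 0.09, the pathway genes split into 12 higher and 5 lower. The shares of all genes above were taken without this scaling and are no background for that split. The median log2 ratio of the 38 genes was -0.16. Timp1, an inhibitor of matrix metalloproteinases, went from 1.66 CPM (1.36 to 1.99) to 29.8, 17.2 and 11.5 CPM. Replicate 1, with the most Timp1, also had the most fibroblast marker counts (213 CPM), whose part in the result was not tested. The ligand Gdf3 went from 4.41 CPM (3.92 to 4.94) to 8.83, 18.2 and 66.9 CPM, and was highest in replicate 3. Ltbp3, which binds latent TGF-β, went from 3.34 CPM (2.92 to 3.81) to 13.8, 10.0 and 12.6 CPM, Gdf15 from 31.6 CPM to 63.9, 128 and 78.6 CPM, and Pmepa1 from 65.8 CPM to 147, 164 and 136 CPM.

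Zfyve9 had the lowest log2 ratio, -2.35, from 58.4 CPM (56.6 to 60.3) to 10.9, 10.6 and 13.1 CPM. Id1 and Id3, targets of BMP signalling, had log2 ratios of -1.63 and -0.88, Bmp2 -1.33 and the activin receptor gene Acvr2a -1.06. When infarct types were weighted by their baseline shares of UMIs, Bmp2 was at -0.03 and Id3 at -0.56, and neither was called. By role, ligands had 2 higher and 1 lower of 3, genes of latency and activation 2 and 0 of 5, and receptors 1 and 3 of 7. Smads had 0 higher and 2 lower of 3, brakes and partners 2 and 4 of 11, and reported targets 1 and 2 of 9.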

How the data were processed

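EGFP+ Ly6G- heart cells were profiled with 3′ droplet sequencing in 4 libraries. The authors deposited UMI counts per gene and cell barcode, made with Cell Ranger (3.1.0 in the matrix headers, 3.0.1 in the submitters' processing notes) on mm10. Barcodes with 500 to 40000 UMIs and at least 200 genes were kept, with genes found in at least 3 cells. Totals of 71093963 UMIs at baseline and 88157753 to 97944428 after infarction limit precision by counting. Cells were gated on marker shares. The cuts were set after marker distributions were seen, without reading the 8 genes. The genes and lists were chosen with earlier results of these data known.

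Counts were summed per library and type (at least 20 cells in every infarct library) and tested with edgeR 4.0.16 (R 4.3.3; quasi-likelihood, TMM, Benjamini-Hochberg over all genes, adjusted p under 0.01) with the heart as a block. The pairing comes from the design: both sums of a pair are from the same heart. With this block, the p-values concern how the difference between a type and the other cells varied over 3 hearts. edgeR estimates that spread with information shared over all genes. In resident-like and Saa3/Arg1 macrophages and in non-classical monocyte-like and granulocyte-like cells, the p-values match a normal test of the log2 fold change over its SE. In these types the gene's own spread over the hearts did not enter. Their small p-values, such as 1.31e-24 for Tgfbr1 in resident-like macrophages (edgeR), therefore do not measure how well the 3 hearts matched for that gene. Infarct and baseline were compared as CPM without mitochondrial genes, with exact 95% Poisson intervals. The CPM printed beside fold changes of a type are not TMM-scaled, so levels and fold changes can differ in size or sign. The edgeR step was tested on simulated sums for the Gpnmb-high and non-classical types, with 79.4% and 45.9% of 2-fold changes (1 on the log2 scale) recovered.

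Alternatives were DESeq2 1.42.0, other scalings, filters and gates, Leiden clusters (scanpy 1.11.5, leidenalg 0.10.2; 2000 variable genes, 20 components, 25 neighbours, resolution 1, the pathway genes left out), thinning to 2000 UMIs, doublet removal and leaving out each library. Scrublet's automatic calls marked almost no infarct cells, so doublets were kept, and the alternative removed the highest scores at 8 per 1000 cells for each 1000 cells. Further pathway genes were named where they passed with all libraries and without each in turn, at most 4 per type by fold, or, against baseline, at most 5 per direction. A gene that met this rule is not reported here. Likeness was ranked over genes averaging 20 CPM or more.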

Additional observations from a re-analysis of the deposited data

Results flagged for a closer look

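Tgfbi differed between infarct and baseline in opposite directions in different types. Its log2 ratio was -1.27 in resident-like macrophages, where all 3 infarct libraries lay below the baseline library, and 1.06 in classical monocyte-like cells and 1.40 in dendritic-like cells, where all 3 lay above it. With clusters in place of gates all 3 values were smaller in size, and the dendritic-like value changed most. The difference between the types was not tested, since baseline was 1 library.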

How the results depend on the processing

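Of the 47 member calls by type, other settings gave 40 to 52, except 31 with no replicate block, and leaving out an infarct library gave 39 to 45. The 223 calls of pathway genes became 101 with no replicate block and 138 with each cell thinned to 2000 UMIs, and 157 to 191 without a library. Shares of all genes are given for the main settings only, so these counts have no background of their own. Against the average of the other gated types, directions turned for Tgfbr1 in non-classical monocyte-like (0.22) and granulocyte-like cells (0.13), Tgfbi in MHC-II-low macrophages (0.053), Smad7 in MHC-II-low macrophages (0.29), and in Gpnmb-high macrophages for Tgfbr2 (0.24), Tgfbi (0.41), Smad7 (0.045), Ccn2 (0.29) and Thbs1 (0.098). They also turned for Gdf3 (0.094) and Gdf15 (0.42) in resident-like macrophages and Thbs1 in interferon-response macrophages (0.046). With stricter gates Tgfbr1 in Gpnmb-high macrophages turned to -0.31. The cause was not tested. Against baseline over all cells, the 2 member calls became 1 with TMM scaling and 1 with infarct types weighted by baseline shares, and 1 to 2 without a library. The 20 pathway calls became 12 with that weighting and 33 with no filter on low values, which tests more genes, and 20 to 22 without a library. Within types, 14 of 72 pairs became 9 of 64 with Leiden clusters, which gave no cluster for MHC-II-low macrophages, and 15 to 17 without a library. Depth limited granulocyte-like cells most, with 5 to 229 UMIs per member.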

Other observations

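Smad7 was also found outside the myeloid types. B-cell-like cells held 267 CPM (95% Poisson interval 209 to 336) at baseline and 207 CPM (145 to 286) in the pooled infarct libraries, on 72 and 36 UMIs. Endothelial-like cells held 252 CPM (199 to 314) at baseline, on 78 UMIs, and 42.8 CPM (11.7 to 110) in the pooled infarct libraries, on 4 UMIs. The B-cell-like levels lay above those of the 11 myeloid types, of which dendritic-like cells had the highest infarct mean (95.7 CPM). The intervals cover counting error only, and no test was made.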
